A study of Mus musculus with 6 samples.

Results

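Fibroblasts with the strongest contractile gene program on the single-cell chip of cardiac fibroblasts were examined, here called high-score wells. Each well of the chip was meant to hold 1 cell. The score of a well was the number of unique molecular identifiers (UMIs, 1 per captured transcript) of Acta2, Tagln, Cnn1 and Myl9 per 10000 UMIs of the well. Of 1053 wells in 8 named sets (Types AF1, AF2, AF0_1, AF0_2, NF1, NF2, NF0_1 and NF0_2), 1044 held 500 or more non-mitochondrial genes. Within each Type the 25% of wells with the highest score were taken as high-score wells and the 25% with the lowest as low-score wells, which gave 259 of each and 526 middle wells. The high-score wells are 259 of the 2482 wells with counts on the 2 chips of the series.

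Myofibroblasts are fibroblasts that build actin stress fibres and contract. In the heart they appear after injury and also when fibroblasts are cultured on stiff plastic. The program includes smooth muscle actin (Acta2), the actin-bundling protein transgelin (Tagln), calponin (Cnn1), which binds actin and damps myosin activity, and a regulatory myosin light chain (Myl9). Its best known inputs are transforming growth factor beta and mechanical tension, which act in part through serum response factor (SRF) and its binding site, the CArG box.

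The study asked how fibroblasts of different age act on immature cardiomyocytes (imCMs). Cardiac fibroblasts of C57BL/6 mice (C57BL/6J in the study's methods) were taken either from newborns (NFs) or from adults (AFs). They were stained with a tracker dye, cultured with imCMs, sorted and placed on the chip, where imaging selected wells with a single live cell. Fibroblasts had been cultured before the co-culture, and more AFs than NFs were plated per imCM. All fibroblast wells form 1 library, and the Type is a name in the deposited well table, so Types are neither replicates nor groups given by the sample labels. The meaning of the 0 in a Type name is not given in the sources used here, nor whether the wells of those Types were co-cultured in the same way. Wells were selected on the measured UMIs of the 4 score genes, so differences between high-score and low-score wells are described and not tested, and the spread over Types is given with them.

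The score was graded, with no gap between the groups. Its median per Type ran from 13.1 to 33.4 UMIs per 10000. The lowest high-score well of a Type lay between 25.8 and 49.9, and the highest middle well of a Type between 25.7 and 49.7. In all, 120 wells lay within 10% of the upper boundary of their Type, so the high-score wells are the upper end of a graded score. The groups are cut from this score, so it cannot tell whether they hold a separate cell type. Even the low-score wells mostly held contractile transcripts, since 247 of 259 had an Acta2 UMI and 223 a Tagln UMI. In the 5 negative control wells, with a median of 231 and a highest total of 2435 UMIs, the 4 genes had 3 UMIs in all. Their share of the control UMIs was not computed, so this count does not show that low-score levels lie above background.

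**Figure D1:**
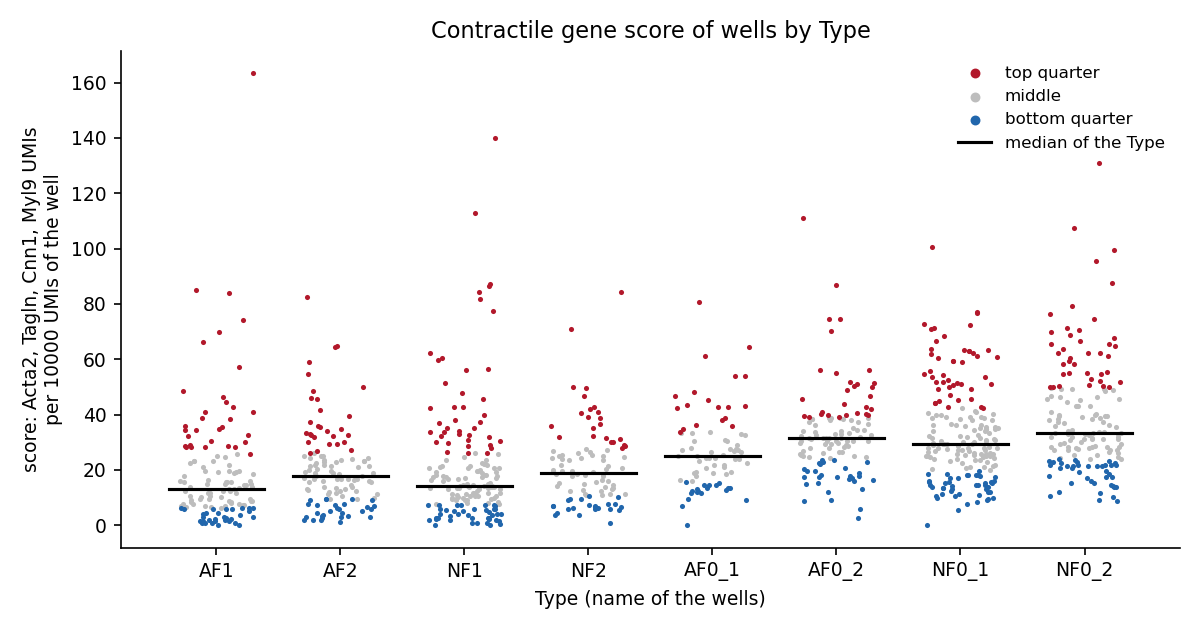
Contractile gene score (UMIs of Acta2, Tagln, Cnn1 and Myl9 per 10000 UMIs) of each of 1044 wells by Type, with the top and the bottom 25% of each Type in color and the median as a bar. The 4 Types with 0 in their name have medians from 24.9 to 33.4 and the 4 others from 13.1 to 18.9.

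All 4 Types with a 0 in their name had higher median scores than all 4 numbered Types, with means of Type medians of 29.8 ± 3.69 (SD over 4 Types) and 16 ± 2.77. The medians of AF and NF Types overlapped, with means of 21.8 ± 8.06 and 24.0 ± 8.89. Between Types that share the rest of their name the NF median was the higher one in all 4 pairs, with 14.3 against 13.1 for 1, 18.9 against 17.8 for 2, 29.3 against 24.9 for 0_1 and 33.4 against 31.5 for 0_2. This order was not tested, and the sources used here do not say that the names pair the wells. Against 1 common boundary of 35.9, the top 25% of all wells, the share of wells above it was 10.3% (exact binomial 95% interval 5.46 to 17.4) in AF2 and 12.4% (7.26 to 19.4) in AF1. It was 13.2% (8.44 to 19.3) in NF1 and 13.8% (7.57 to 22.5) in NF2. In AF0_1 it was 22.1% (13.4 to 33.0), in NF0_1 35.7% (28.8 to 43.0), in AF0_2 36.2% (27.5 to 45.6) and in NF0_2 45.6% (37.7 to 53.7). The interval of AF0_1 overlapped those of the numbered Types, while those of the other three did not. These intervals cover counting error only.

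The score was carried mostly by smooth muscle actin. Acta2 (ENSMUSG00000035783, GRCm38 chr19:34241090-34255590, minus strand) gave 58.7% of the score UMIs of the high-score wells and Tagln (ENSMUSG00000032085, chr9:45929619-45936058, minus strand) gave 33.8%. Myl9 (ENSMUSG00000067818, chr2:156775420-156781658, plus strand) gave 6.73% and Cnn1 (ENSMUSG00000001349, chr9:22099216-22109630, plus strand) 0.779%. The median high-score well had 27.2 Acta2 UMIs, 16.2 Tagln UMIs and 2.81 Myl9 UMIs per 10000, and the median low-score well had 4.88, 3.15 and 0.205. Cnn1 was seen in 66 of 259 high-score and 20 of 259 low-score wells, so few wells carried this late marker of the contractile program at this depth. Across the wells of a Type, Acta2 and Tagln went together most closely (Spearman rho 0.44 to 0.64 over 8 Types), followed by Acta2 and Myl9 (0.21 to 0.48). Cnn1 and Myl9 were only loosely related (0.04 to 0.31). All of these are shares of the same well totals, so the correlations are descriptions only.

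The promoters of 2 score genes, of the SRF-associated gene Fhl1 and of Tpm2, described below, are shown (RefSeq, GRCm38.p6, 250 bases before to 50 after the start, 5′ to 3′ on the gene's strand). Those of Myl9 and Fhl1 are shown because they hold a CArG box, so the choice favors matches. Capitals mark each match to the CArG box or to its form with 1 inner base left free, searched on both strands at once because the box is its own reverse complement. The windows are chr19:34255324-34255623 (minus) for Acta2, chr2:156775214-156775513 (plus) for Myl9, chrX:56779433-56779732 (plus) for Fhl1 and chr4:43523505-43523804 (minus) for Tpm2.
Acta2: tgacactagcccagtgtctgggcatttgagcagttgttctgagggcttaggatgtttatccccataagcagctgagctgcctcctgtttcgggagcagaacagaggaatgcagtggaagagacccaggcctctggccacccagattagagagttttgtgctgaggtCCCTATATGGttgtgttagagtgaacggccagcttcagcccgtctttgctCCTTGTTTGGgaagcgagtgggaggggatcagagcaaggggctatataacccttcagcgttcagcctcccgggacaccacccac
Myl9: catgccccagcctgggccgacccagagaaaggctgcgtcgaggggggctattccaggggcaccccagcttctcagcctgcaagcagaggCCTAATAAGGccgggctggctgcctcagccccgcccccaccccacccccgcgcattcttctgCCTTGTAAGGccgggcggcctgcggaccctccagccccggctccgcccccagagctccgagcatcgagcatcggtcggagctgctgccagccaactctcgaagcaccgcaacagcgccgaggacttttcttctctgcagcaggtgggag
Fhl1: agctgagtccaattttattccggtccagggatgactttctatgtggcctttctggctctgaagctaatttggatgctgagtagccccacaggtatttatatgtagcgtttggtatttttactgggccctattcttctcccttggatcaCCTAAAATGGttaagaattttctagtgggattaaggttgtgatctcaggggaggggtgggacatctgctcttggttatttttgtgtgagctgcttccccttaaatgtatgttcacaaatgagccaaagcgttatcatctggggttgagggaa
Tpm2: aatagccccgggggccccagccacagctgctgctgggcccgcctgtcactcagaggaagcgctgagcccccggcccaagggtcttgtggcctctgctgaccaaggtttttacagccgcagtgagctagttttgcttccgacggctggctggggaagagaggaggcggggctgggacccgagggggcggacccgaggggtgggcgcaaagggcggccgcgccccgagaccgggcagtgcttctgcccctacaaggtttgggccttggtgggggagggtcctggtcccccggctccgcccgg
Myl9 held the strict box at base 90 of the window and the form with 1 free base at base 152. Fhl1 held the strict box at base 149, while its other window, chrX:56786277-56786576, held neither form. Acta2 held the form with 1 free base at bases 167 and 217 and no strict box. The Tpm2 window held neither form, nor did those of Cnn1, Lmod1 and Ppp1r14a, which are not shown. The strict box was found in 1.63% of 32851 promoters in the table and the form with 1 free base in 9.98%. Of the 17 score genes and genes past the fold described next, 13 were in the table, and Myl9 was the one with a strict box. A match is a description of these letters and not a binding site.

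High-score wells had higher levels of other parts of the contractile machinery. Levels are in CPM, the usual scaling of counts to a common library total, here of non-mitochondrial gene UMIs, summed over the high-score or the low-score wells of a Type. The log2 ratio of both, with 5 CPM added to each, was averaged over the 8 Types. Of 6198 genes with a mean level of at least 20 CPM, 13 were past the fold in the high-score wells, that is, with a mean log2 ratio of at least 1 and higher in all 8 Types (0.21% of the genes tested), and 42 were lower by the same rule (0.678%). Without the fold, 160 genes (2.58%) were higher and 82 (1.32%) lower in all 8 Types. The median log2 ratio of all genes was 0.05.

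Tpm2, which codes for beta-tropomyosin, the protein that lies along actin filaments and gates myosin binding (ENSMUSG00000028464, chr4:43514711-43523765), had the largest ratio among the genes past the fold with at least 50 CPM. Its level per Type was 266 to 842 CPM (median 541) in high-score wells and 88.6 to 349.5 CPM (median 179) in low-score wells. The ranges overlap between Types, but within every Type the high-score wells were above the low-score wells, with a mean log2 ratio of 1.60 ± 0.46 (SD over 8 Types). Summed over all wells of a group the level was 591 CPM (exact Poisson 95% interval 578 to 603) against 227 CPM (219 to 235). Its level in the middle wells lay between both in all 8 Types (median 319 CPM). With every well thinned to 5000 UMIs, Tpm2 was seen in 76.1% (70.3 to 81.3) of 243 high-score wells and 45.8% (39.5 to 52.2) of 251 low-score wells, and unthinned in 88.4% and 71.4%.

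Lmod1 (leiomodin, which nucleates actin filaments in smooth muscle, ENSMUSG00000048096, chr1:135324807-135368065) had 13.2 to 75.5 CPM (median 47.2) in high-score wells and 0 to 33.6 CPM (median 6.53) in low-score wells, a mean log2 ratio of 1.91 ± 1.23. The spread over Types was wide, as AF1 had 13.2 against 12.3 CPM and NF0_1 had 75.5 against 7.06 CPM. Ppp1r14a (ENSMUSG00000037166, chr7:29289308-29293801) codes for CPI-17, which holds back the phosphatase of the myosin light chain. It had the largest ratio of the 13 genes and was chosen after its values were seen, since it lies under the level of 50 CPM set for naming genes. Its level was 19.4 to 53.4 CPM (median 37.2) in high-score wells and 0 to 19.8 CPM (median 3.53) in low-score wells, a mean log2 ratio of 2.16 ± 0.87. The ranges touched only at their ends, since the highest low-score value of 19.8 CPM lay just above the lowest high-score value of 19.4 CPM. After thinning, Ppp1r14a was seen in 12.8% (8.84 to 17.6) of high-score and 1.59% (0.436 to 4.03) of low-score wells, and Lmod1 in 14% (9.89 to 19) and 3.19% (1.39 to 6.18).

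Tgfb3, the ligand transforming growth factor beta 3 (ENSMUSG00000021253, chr12:86056745-86079041), was the one gene of its pathway past the fold. It had 28.2 to 97.4 CPM (median 56.4) in high-score wells and 3.87 to 40.0 CPM (median 13.4) in low-score wells. Its mean log2 ratio of 1.71 ± 0.41 had the smallest spread over Types of the genes named so far.

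The other genes past the fold and above the level for naming were Ift43 (log2 ratio 1.40 ± 0.91), a subunit of the transport complex of cilia, and Selenom (1.30 ± 0.71), a selenoprotein of the endoplasmic reticulum. They also included Rflnb (1.23 ± 1.12), which binds filamin, Copz2 (1.03 ± 0.39), a subunit of the coat of Golgi vesicles, and Sdc2 (1.02 ± 0.40), a heparan sulfate proteoglycan of the cell surface. Selenom had 318 to 489.8 CPM (median 401) in high-score wells and 51.4 to 297 CPM (median 177) in low-score wells, and these ranges did not overlap. Copz2 had 237 to 567 CPM against 139 to 269.8 CPM. The interferon-induced gene Ifit3 was also past the fold (1.18 ± 0.94), with 6.03 to 193 CPM against 0 to 88.1 CPM, and reads of its close copy Ifit3b may be shared with it. Mmp23, Pex19 and Plac9b, named after their values were seen, complete the 13 genes with ratios of 1.24, 1.01 and 1.01. Genes near the fold were not past it in many of the alternative settings that keep all 8 Types: Plac9b was past it in 5 of 17, Pex19 in 6 of 17 and Sdc2 in 9 of 18. With the mean of per-well CPM 7 of the 13 genes were past the fold, and after thinning 2 of the 12 tested. In 12 of the 13 genes the median level of the middle wells lay between those of the low-score and high-score wells, with Rflnb as the exception. Counted per Type, this order held in 3 to 8 of 8 Types, with a median of 6 over the 13 genes. The genes were chosen for the difference between the outer groups, so a middle level between them is partly built in.

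**Figure D2:**
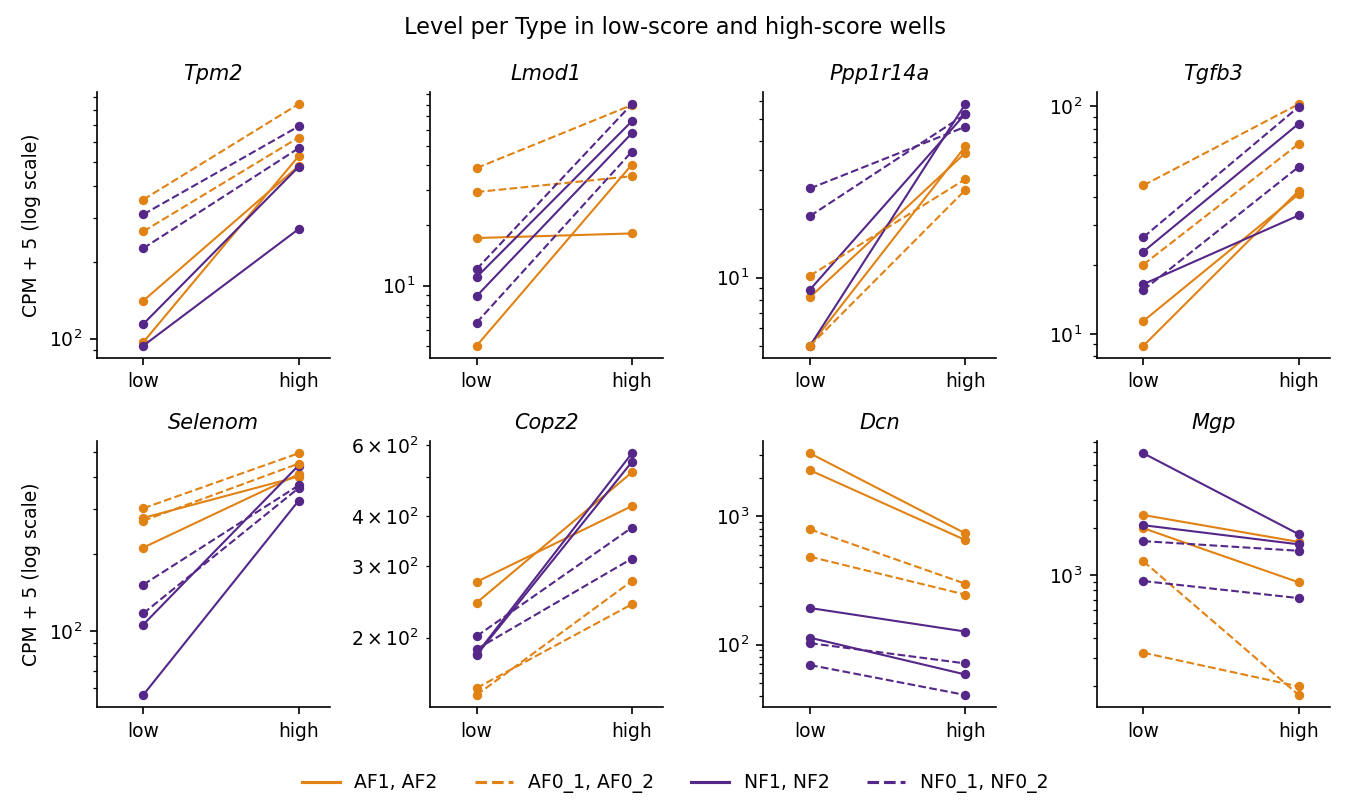
Level of 8 genes in the low-score and the high-score wells of each of the 8 Types, as CPM + 5 on a log axis, 1 line per Type (orange AF, purple NF, dashed for Types with 0 in their name). Tpm2, Lmod1, Ppp1r14a, Tgfb3, Selenom and Copz2 slope up in all 8 Types, and Dcn and Mgp slope down in all 8.

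The actin and actomyosin list, which leaves out the score genes, was higher almost throughout. Of its 25 tested members 24 had a ratio above 0, against 55.3% of all genes tested, 9 were higher in all 8 Types, against 2.58% of all genes, and 2 (Tpm2 and Lmod1) were past the fold. Its median log2 ratio was 0.50, with Type medians from 0.22 to 0.84. Actg2, the enteric smooth muscle actin, had a ratio of 1.59 ± 1.31 and was higher in 7 of 8 Types, though reads may be shared with the closely related Acta2. The actin monomer binder Pfn1 had 848 to 2312 CPM against 474 to 1423 CPM, a ratio of 0.83 ± 0.58 with all 8 Types higher. Tpm1, a tropomyosin that cardiomyocytes also make, had a ratio of 0.06 ± 0.81. Flnc, a muscle filamin, was the member under 0, at -0.05 ± 0.91. The members of the focal adhesion and mechanical coupling list had a median of 0.54, and 21 of 21 were above 0, with 4 higher in all 8 Types and 0 past the fold. Itga5 (1.02 ± 0.99), a fibronectin receptor subunit, and Pdlim1 (0.85 ± 0.74), an adaptor of actin filaments, had the largest ratios there.

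The lists of regulators were less uniform. Of all genes tested, 55.3% were above 0. SRF cofactors and regulators had a median of 0.27 with 8 of 11 above 0, led by Fhl1 (1.23 ± 1.11, higher in 7 of 8 Types), while Srf itself was at -0.32 ± 0.68. Targets of YAP and TEAD, the mechanically controlled transcription factors, had a median of 0.12 with 7 of 12 above 0, and connective tissue growth factor (Ccn2) was at 0.70 ± 0.74. In the list of the transforming growth factor beta pathway 8 of 16 were above 0 and the median was 0.14. Besides Tgfb3, the SMAD-associated adaptor Tgfb1i1 was higher in all 8 Types (0.73 ± 0.43), and the receptor gene Tgfbr2 was lower in all 8 (-0.88 ± 0.46). Immediate early genes had a median of -0.29 with 14 of 16 under 0, against 44.7% of all genes, and the transcription factor gene Fos was at -0.54 ± 1.16.

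Matrix genes leaned the same way as the actin list but less evenly over Types, with 1 clear exception. Of 30 tested fibrillar matrix and crosslinking genes, 28 had a ratio above 0, against 55.3% of all genes tested. The median was 0.45, with Type medians from -0.19 to 0.94. In this list 1 gene was higher in all 8 Types, against 2.58% of all genes, and 0 were past the fold higher. Col11a1 (0.77 ± 0.84), a minor fibrillar collagen, and Timp1 (0.74 ± 0.67), an inhibitor of metalloproteinases, had the largest ratios. Decorin (Dcn, ENSMUSG00000019929, chr10:97479609-97518143), the small proteoglycan that coats collagen fibrils, was past the fold in the other direction. Its level was 35.5 to 729 CPM (median 181) in high-score wells and 64.3 to 3084 CPM (median 333) in low-score wells. The ranges overlap because AF wells held far more Dcn than NF wells, but within each of the 8 Types the high-score wells were lower, with a mean log2 ratio of -1.14 ± 0.57. In AF2 the levels were 729 and 3084 CPM, and in NF1 53.4 and 108 CPM. The share of wells with a Dcn UMI differed little, with 178 of 259 high-score and 175 of 259 low-score wells and, after thinning, 37.9% (31.7 to 44.3) and 42.2% (36.0 to 48.6). A single well gave 18.5% of the low-score UMIs. Dcn was past the fold in 11 of 18 alternative settings, with ratios from -1.41 to -0.56. Among other genes the study examined as fibroblast signals, Cxcl12 was at -0.46 ± 0.84, Lamc1 at -0.34 ± 0.78, Egr1 at -0.37 ± 0.41 and Lama2 at 0.61 ± 1.29, while Pgf lay under the level tested. For the lists that follow, 55.3% of all genes tested were above 0 and 44.7% under 0. Basement membrane genes had a median of 0.03 with 6 of 11 above 0. Fibroblast identity genes had a median of 0.21 with 11 of 15 above 0. Growth factors and ligands had a median of -0.11 with 7 of 15 above 0, with Ccn4 at 0.99 ± 0.61 and Igf1 at -1.24 ± 1.44. Inflammatory and acute phase genes had a median of -0.36 with 10 of 14 under 0, and interferon response genes 0.28 with 10 of 12 above 0. Ribosomal protein genes had a median of 0.20 with 23 of 24 above 0. From the basement membrane list on, all lists but the ribosomal one had Type medians on both sides of 0.

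**Figure D3:**
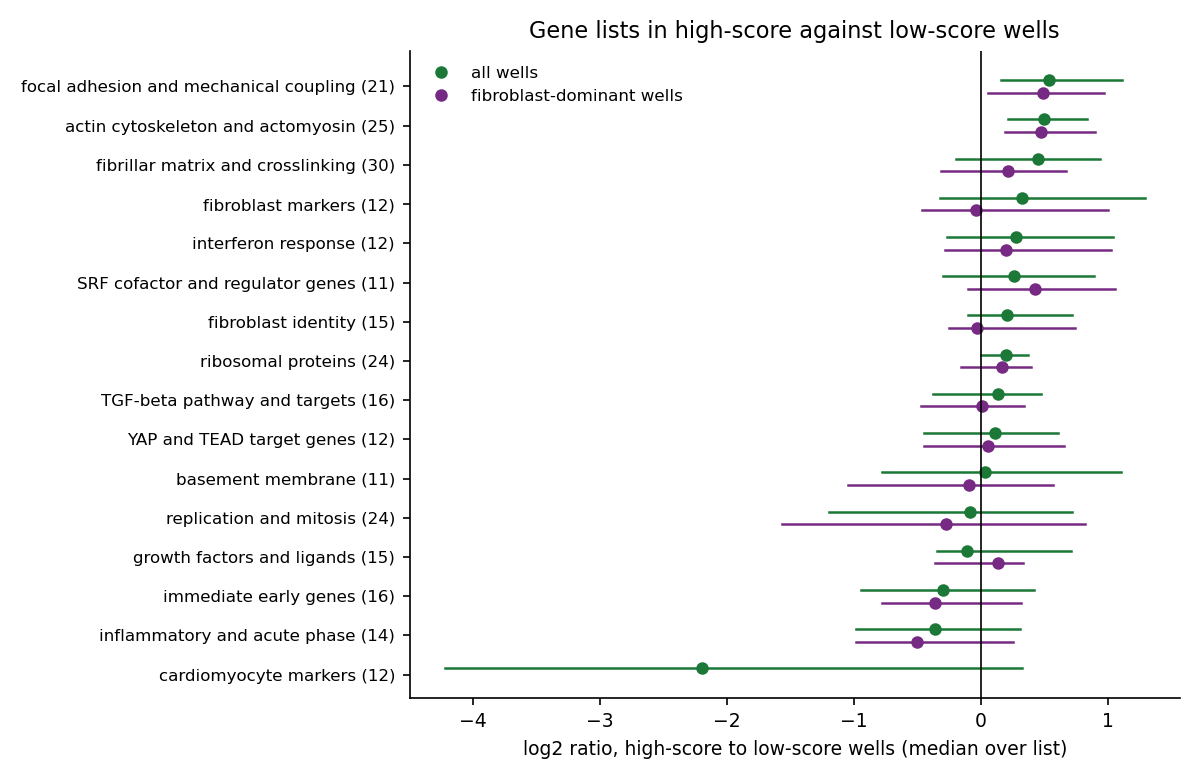
Median log2 ratio of high-score to low-score wells for the gene lists with 10 or more tested members (number in brackets), over all wells (green) and over wells led by fibroblast markers (purple), with bars from the lowest to the highest Type median. The actin list (0.50 and 0.48) and the focal adhesion list (0.54 and 0.50) stay above 0 in every Type on either basis, and cardiomyocyte markers (-2.19) are shown for all wells only because fewer members were tested otherwise.

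The fibroblast label held for most high-score wells and for fewer low-score wells. Of the sums of 7 marker lists, fibroblast markers were the largest in 227 of 259 high-score wells (87.6%, exact binomial 95% interval 83 to 91.4) and 173 of 259 low-score wells (66.8%, 60.7 to 72.5). Endothelial markers led in 1 high-score and 25 low-score wells, macrophage markers in 1 and 18, and cardiomyocyte markers in 24 and 41. Smooth muscle and pericyte markers led in 6 high-score and 2 low-score wells. The endothelial sum ranged from 0 to 43.5 UMIs per 10000 in high-score wells and from 0 to 83.1 in low-score wells, and was 0 in 136 and 115 of them. Of the smooth muscle and pericyte list, Myh11 was seen in 14 of 259 high-score and 5 low-score wells, Rgs5 in 14 and 9, and Kcnj8 in 1 and 4. More common members were also seen in more high-score wells, with Lmod1, which is on the actin list too, in 89 and 34. Mcam was seen in 131 and 102, Mustn1 in 103 and 74, Cspg4 in 105 and 82, Notch3 in 51 and 30 and Pdgfrb in 194 and 164. Des (47 and 49) and Abcc9 (5 and 16) went the other way, as did Kcnj8. After thinning Myh11 was seen in 2.47% (0.911 to 5.30) of high-score wells and 0 of 251 low-score wells, where the exact upper limit was 1.46%. Cardiomyocyte markers led in 125 of 606 NF wells (20.6%) and 7 of 438 AF wells (1.60%). The ratios are given without these wells further on.

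**Figure D4:**
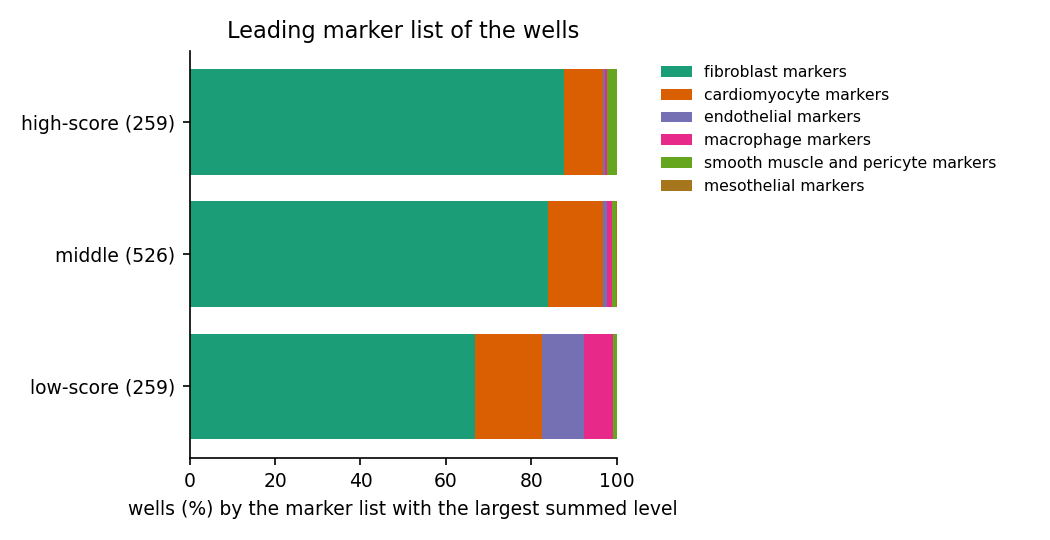
Share of low-score, middle and high-score wells (%) by the cell type marker list with the largest summed level in the well. Fibroblast markers lead in 66.8% of low-score, 84.0% of middle and 87.6% of high-score wells, and endothelial markers in 9.65%, 0.951% and 0.386%.

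Genes lower in high-score wells included markers of these other cells. All 4 tested endothelial markers were past the fold, among them the endothelial cadherin Cdh5 (1.0 to 54.9 CPM in high-score and 9.89 to 545 CPM in low-score wells, log2 ratio -3.42 ± 1.74) and Emcn, an endothelial sialomucin (-2.61 ± 1.60). The protease inhibitor gene Ctla2a had the largest level among them, with 148 to 1151 CPM (median 239) against 304 to 13111 CPM (median 7061), a ratio of -3.33 ± 1.93. After thinning it was seen in 55.6% (49.1 to 61.9) of high-score and 55.4% (49.0 to 61.6) of low-score wells, so the groups differed in its level and not detectably in the share of wells. Procr, the endothelial receptor of protein C (-2.55 ± 1.16), Selp, the adhesion molecule P-selectin (-2.11 ± 1.94), the adhesion receptor gene Adgrf5 (-2.82 ± 1.38) and Clu, the secreted chaperone clusterin (-2.34 ± 1.92), were past the fold too. The cardiomyocyte myosin light chain Myl3 (-2.64 ± 1.94) and Chchd10 (-2.53 ± 2.03), a nuclear gene for a mitochondrial protein, were also past the fold. Cardiomyocyte markers had a median of -2.19 with 12 of 12 under 0. Macrophage markers (2 tested, median -2.19) and the 1 mesothelial marker tested (-0.97) were also under 0, no Schwann cell marker was tested, and smooth muscle and pericyte markers (median 0.59) had 5 of 5 above 0. Fibroblast markers had a median of 0.33 with 8 of 12 above 0, against 55.3% of all genes tested. The predicted gene Gm10800 (-3.14 ± 3.0) had a wide spread over Types. Single wells weighed on several of these genes, giving 28.2% of the low-score UMIs of Gm10800, 23.2% of Chchd10, 22.5% of Emcn, 22.3% of Procr, 18.9% of Selp and 18.0% of Ctla2a.

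Leaving out the 202 wells led by markers of another cell type kept the contractile genes past the fold and left fewer of the lower ones past it. Among the 842 fibroblast-dominant wells the 25% groups held 208 wells each. Of 6141 genes tested, 9 were past the fold higher (0.147%) and 19 lower (0.309%), of which 7 and 11 were also past it among all wells. Without the fold, 127 genes (2.07%) were higher and 57 (0.928%) lower in all 8 Types. Those 7 were Tpm2 (1.51 ± 0.51), Lmod1 (1.84), Ppp1r14a (1.94), Tgfb3 (1.81), Selenom (1.12), Ift43 (1.48) and Ifit3 (1.14). They were joined, named after their values were seen, by Cavin3 (1.06 ± 0.64), which coats caveolae, with 62.5 to 240.0 CPM against 23.1 to 76.9 CPM, and the predicted gene Gm11451 (1.11). Tpm1 reached 0.73 ± 0.38 with all 8 Types higher. The actin list kept its median (0.48), with 24 of 25 above 0 against 54.2% of all genes tested, and 9 of 25 higher in all 8 Types against 2.07%. The focal adhesion list had a median of 0.50 with 20 of 21 above 0. The fibrillar matrix median was 0.22, the median of the fibroblast identity list -0.03 with 6 of 15 above 0, and the cardiomyocyte median -0.15. The cardiomyocyte markers and some members of the other lists, such as Dcn and Thy1, were part of the filter. These medians therefore depend on the filter itself and are not set against the actin list.

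Within fibroblast-dominant wells the lower genes included matrix proteins and surface receptors. Matrix Gla protein (Mgp, an inhibitor of calcification, ENSMUSG00000030218, chr6:136872435-136875823) had 163 to 1939 CPM (median 778) in high-score and 872 to 7171 CPM (median 2167) in low-score wells, and all 8 Types were lower with a log2 ratio of -1.75 ± 0.95. Dcn kept its direction in all 8 Types (-1.26 ± 0.59), and its relative lumican, Lum, was at -1.22 ± 1.40 with 6 of 8 Types lower. Dcn and Lum are among the fibroblast markers that selected these wells, so their ratios here depend on that choice. Vcam1, an adhesion molecule for leukocytes, had 73.8 to 415 CPM against 204 to 827 CPM (-1.08 ± 0.65). Igf2r, a receptor that clears insulin-like growth factor 2, had ranges that did not overlap, 28.3 to 147 CPM against 158 to 248 CPM (-1.12 ± 0.62). The complement regulator Cd55 (-1.62 ± 1.02), the surface glycoprotein Cd24a (-1.90 ± 0.88) and the sphingosine receptor S1pr1 (-1.21 ± 0.85) were lower in all 8 Types as well. Mgp, Vcam1, Igf2r, Cd55, Cd24a and S1pr1 were named after their values were seen. Endothelial genes kept part of their difference, with Cdh5 at -2.14 ± 1.82 and 7 of 8 Types lower, so endothelial transcripts were still higher in low-score wells of this set, and their part in the other ratios was not tested.

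**Figure D5:**
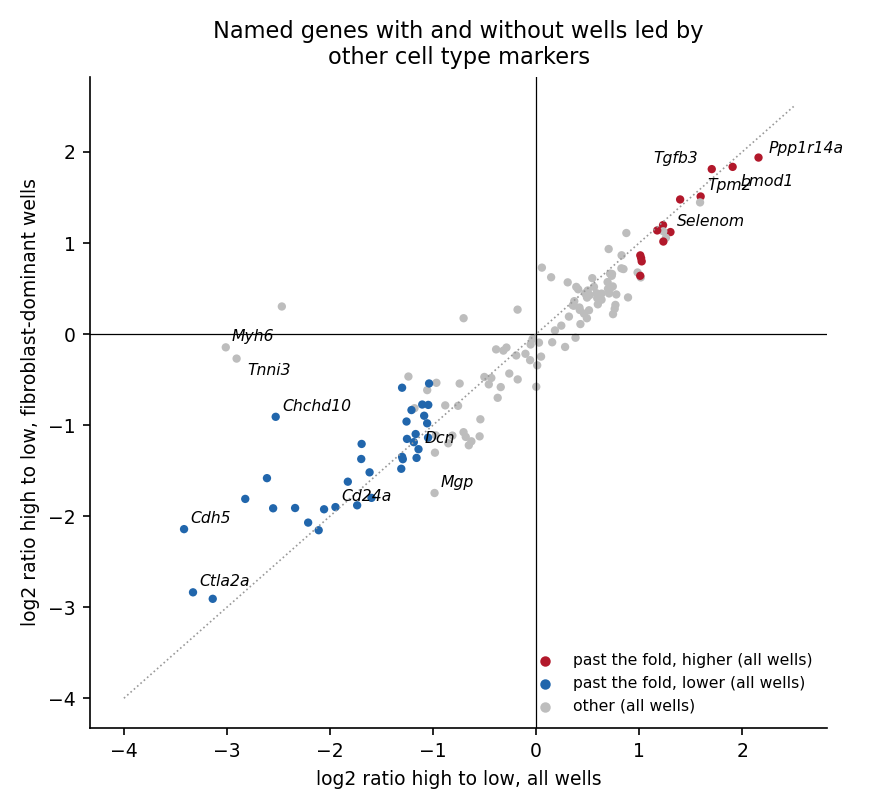
Mean log2 ratio of high-score to low-score wells for 146 named genes tested on both bases, over all wells (x axis) and over fibroblast-dominant wells (y axis), with equality as a dotted line. Tpm2, Lmod1, Ppp1r14a, Tgfb3 and Dcn lie close to the line, Mgp lies under it (-0.99 and -1.75), and the cardiomyocyte genes Myh6 and Tnni3 move from -3.01 and -2.91 to -0.15 and -0.27. Myh6, Tnni3 and Dcn are among the markers used to choose the fibroblast-dominant wells, so their places depend on that choice.

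Acta2, Tagln and Myl9 had larger ratios in numbered Types than in Types with 0, and Cnn1 a smaller one (1.59 and 2.39). The groups were cut on these genes within each Type, so the size of their ratios depends on the cut. The median score of the low-score wells of a Type was 2.65 to 6.48 in numbered Types and 12.8 to 20.1 in Types with 0. The ratios of the score genes therefore cannot show a difference between Types beyond that of the score itself. The mean log2 ratio of Acta2 was 3.15 in numbered Types and 2.01 in Types with 0. Tpm2 had 1.95 and 1.24, and Tgfb3 1.75 and 1.66. AF and NF Types had similar ratios for Tpm2 (1.68 and 1.52), Tgfb3 (1.77 and 1.64) and Ppp1r14a (2.19 and 2.13), while Lmod1 had 1.10 and 2.72 and Selenom 0.74 and 1.87. The list of replication and mitosis genes had a median of -0.09 over all wells, with 9 of 24 above 0, against 55.3% of all genes. It had medians of 0.46 in AF Types and -0.96 in NF Types among fibroblast-dominant wells, with Type medians from -1.56 to 0.82, and the difference was not tested. After thinning, the summed level of that list had a median of 12 UMIs per 10000 in high-score, 14 in middle and 12 in low-score wells. Across all 6141 genes tested in fibroblast-dominant wells, which share the library and are not independent, the ratios of AF and NF Types had a Pearson r of 0.15.

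Pooled over Types, the median number of UMIs was 41883 in high-score, 32534 in middle and 37118 in low-score wells, and 1795, 1768.5 and 1736 genes were seen per well after thinning. Within Types the depth differed in both directions. High-score wells were deeper in NF2 (48807 against 24732 UMIs), AF1 (44208.5 against 27214.5) and AF2, and low-score wells in the other 5 Types, among them AF0_1 (38622 against 57908) and NF1 (15628 against 21762). The share of aligned reads was 77.0% in high-score and 64.7% in low-score wells of NF2, and its Spearman rho with the score ran from -0.08 to 0.42 over Types. Per Type, the share of mitochondrial UMIs was lower in high-score wells (Type medians 4.27% to 7.07%) than in low-score wells (4.78% to 8.56%), and the score went down as this share went up in every Type (Spearman rho -0.38 to -0.13). The part of alignment and of the mitochondrial share in the gene ratios was not tested.

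The same ratio was taken in wells the rule had not used, 125 wells of the cardiomyocyte chip whose fibroblast markers exceeded their cardiomyocyte markers. The 3 Types with 20 or more such wells (AFNCM1, AFNCM2 and AFNCM3) were averaged, with 7, 7 and 9 wells in each group, so the values are coarse. Of 6231 genes tested on this chip, 618 were past the fold higher and 370 lower. The fibroblast chip had 13 and 42 of 6198, so a large ratio in 3 of 3 Types was far more common here. Of the 13 higher genes 10 were tested there and 10 had a ratio above 0, against 56.7% of all 6231 genes, with a median of 1.81. Tpm2 was at 2.68 and Ppp1r14a at 2.01, each higher in 3 of 3 Types, while Tgfb3 was at 0.33 and higher in 1 of 3. Of the 42 lower genes 37 were tested and 34 had a ratio under 0, against 43.3% of all genes. Of the 19 genes lower among fibroblast-dominant wells 16 were tested and 11 were under 0, with a median of -0.88. Endothelial markers had a median of -2.46 in these wells with 2 of 8 tested above 0 (Cdh5 at -3.80), and Ctla2a was at -5.13. Wells led by endothelial markers had not been left out there, and their part was not tested. Dcn (-2.15), Mgp (-1.86) and Cd24a (-3.81) were lower in 3 of 3 Types, and Dcn is one of the fibroblast markers that selected these wells. The actin list had a median of 0.64 with 22 of 24 above 0. These wells were split by the same 4 genes, so they show how the pattern recurs and are no test of it. In all, 269 barcodes occur on both chips, 22 of them among the 125 wells. Without those, 8 of 9 higher genes tested had a ratio above 0 and 31 of 38 lower genes a ratio under 0.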

How the data were processed

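UMI counts per gene and well of the fibroblast and the cardiomyocyte chip were used as the authors deposited them. Per the study's methods, read pairs with a valid barcode and UMI were trimmed with cutadapt, screened for contaminants, aligned to mm10 with STAR (version 2.5.2b in the submitters' processing notes) and assigned to Ensembl genes with featureCounts. Use of strand is not given in the sources used here, so values of overlapping genes and close copies are uncertain. Wells were matched to Types by the deposited report table. Symbols were found for 27856 of 28394 gene IDs, and 79 spike-in columns (0.861% of UMIs) were left out. Wells held 1363 to 474726 UMIs (median 35731.5). Multiplets had been excluded by imaging and no doublet caller was run.

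Score, groups, CPM and log2 ratios were computed as given in the report with Python 3.11.15, numpy 2.4.6, pandas 2.3.3 and scipy 1.17.1, and the ratio step was tested on simulated counts. Mitochondrial and score genes were left out of the gene comparison, while score gene UMIs stayed in the totals. There is 1 library and the wells were chosen by their readout, so no p-values were computed. SD values are over Types, and intervals cover counting error only, since UMIs of a well share its amplification. The members and the 21 gene lists (370 genes, 6 matched by an older symbol, 1 not matched) were chosen with earlier results of these data known. Genes named were the score genes, the 15 highest and 10 lowest past the fold with at least 50 CPM, list members past the fold or at the ends of a list, and genes the study examined, and others are marked where they appear. Gene positions are from GENCODE vM21 (GRCm38).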

Additional observations from a re-analysis of the deposited data

How the results depend on the processing

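The number of genes past the fold depended on how wells and genes were chosen. The main counts were 13 higher and 42 lower. Without a filter on mean CPM 66 were lower and the endothelial median was -1.22, and with a minimum of 50 CPM 6 were higher and 21 lower. A pseudocount of 1 gave 21 higher. Comparing the extreme 10% of wells gave 46 higher, and splitting wells at the median gave 3 higher and 14 lower. The mean of log2 values of the 4 genes as score gave 26 lower, the score without Acta2 24 lower, and the score without Tagln 20 higher and 25 lower. The alignment and UMI filter of the study (989 wells) gave 23 higher. Fibroblast-dominant wells gave 19 lower and a cardiomyocyte median of -0.15, where the choice of wells itself used the cardiomyocyte markers. Keeping the wells in each Type with the lower replication sums, an alternative chosen after seeing the data, gave 30 higher. Leaving out 1 Type gave 14 to 29 higher and 44 to 63 lower genes, where the rule asked for 7 Types in place of 8, and the higher count was 29 without AF0_2, 27 without AF0_1, 26 without AF2, and 23 without NF0_2, while 63 were lower without NF2. Lpcat2 went from -1.17 to 0.50 with the extreme 10%, and Peg3 from -1.26 to 0.065 after thinning to 5000 UMIs. After thinning, 2 of 12 higher and 16 of 42 lower genes tested again were past the fold. With the mean of per-well CPM it was 24 of 41 lower genes. Over the alternatives that kept all 8 Types and tested the gene, Tpm2 stayed between 0.999 and 2.22 and Tgfb3 between 1.23 and 2.30. Ppp1r14a stayed between 1.65 and 3.26 but was tested in 13 of these alternatives, against 18 for Tpm2. The median score of NF1 was 18.2 per 10000 non-mitochondrial UMIs and 17.4 in fibroblast-dominant wells, and that of NF0_2 was 37.2 in the latter. List medians moved by less than their SD over Types in the other alternatives. The cause of these changes was not tested.

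Leaving out wells with 3 or more replication UMIs per 10000 kept 98 wells and 2 Types of 20 or more, and asking for fibroblast markers at 3 times the cardiomyocyte markers kept 37 wells on the other chip, so neither gave a value. No paired analysis was possible because the values come from wells of 1 library and from no test. Genes under about 20 CPM, and wells with few UMIs, limit what can be seen for scarce transcripts such as Cnn1.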
